A study of Rattus norvegicus with 12 samples.

Results

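The regions described here are 1070 stretches of the rat genome, each under 300 kb, at which 6 or more assembled genes share the same locus entry in the authors' gene table. They were chosen by the number of tested entries and by length: every entry with a completed test was taken from a locus with at least 6 such entries and less than 300000 bp between start and end, with 6 loci on chromosomes 1, 8 and 20 left out. The 1070 loci hold 12740 of the 42839 tested entries, which is 29.7% of the entries, but only 6.27% of the 17079 tested loci. An entry, called a row here, is 1 assembled gene with 1 value per group. The 6 loci left out hold 91 rows and several of the calls of the table, so the selection is not wholly free of the response.

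The RNA came from the hippocampus of 12 male Sprague-Dawley rats of 8 weeks. All 12 had been adrenalectomised, so that both groups lacked the main source of their own corticosterone. In the corticosterone group, 6 rats received 300 µg/kg, and in the vehicle group 6 rats received vehicle only, and hippocampi were taken 1 h later. For the treated group the labels differ, with cortisone in 1 field and corticosterone in the titles, and the titles are followed here. The table gives a single FPKM value per group and row (fragments scaled by transcript length and library size), so the values for the 6 animals of a group are not separated. The spread between animals and the sequencing depth are unknown, and no SD, SE or new test could be computed. In bulk tissue, fewer cells of a type and less RNA per cell cannot be told apart. The labelled tissue was not checked against markers, since the table carries no gene symbols.

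Corticosterone is the main glucocorticoid of the rat and acts through the glucocorticoid and mineralocorticoid receptors, both of which are abundant in hippocampal neurons. Bound receptor acts in the nucleus and raises or lowers the transcription of its target genes. A gene in an assembly built from reads is a set of overlapping pieces of RNA, so 1 stretch of genome can yield a spliced mRNA, a transcript from the opposite strand, and separate pieces from introns or from beyond the ends. The table names none of its rows by gene symbol and does not say which of these a row is, and loci are therefore given by position, as printed in the table. The submitters' processing notes name the rat build rn5, but the scaffold names look like those of a later build. Which build the positions belong to was not checked. No source used here says if positions count from 0 or 1.

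The member loci were long and held a few to many rows. They spanned 12.3 to 299.6 kb with a median of 123.0 kb, and held 6 to 76 tested rows with a median of 9. Longer loci tended to hold more rows (Spearman's rho of 0.39 across the 1070 loci, a description only). The loci were spread over 21 chromosomes, from 111 on chromosome 1 to 17 on chromosome 20 and 16 on X. In abundance the rows were modest, with a median of 1.86 FPKM over both groups, against 2.16 FPKM for all tested rows.

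The identifiers of the rows divide each locus in a way the selection did not use. On each of the 21 chromosomes the identifiers run through the chromosome 3 times from low to high position, here called the first, the second and the third series. The sources used here do not say what the series stand for. Of the member rows, 733 were in the first series, 726 in the second and 11281 in the third. The most abundant row of a locus, called its leading row, was in the first or second series at 1047 of the 1070 loci. Of the other 11670 rows, 11258 were in the third series, or 96.5%. Rows of the third series were sparser, with a median of 1.71 FPKM, against 7.35 FPKM in the first and 7.65 FPKM in the second. The typical member locus was thus 1 abundant row with a set of sparse rows, the leading row having a median of 9.83 FPKM and 5.71 times the median of its companions.

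A further 1350 rows at these loci were not tested by the authors, which is 9.58% of the 14090 rows there, and 366 of the loci held at least 1 of them. A tested member row had at least 0.803 FPKM in its higher group, and an untested one at most 0.821 FPKM. By these values a sparse row could be tested through either group alone, and 1142 member rows (8.96%) had 1 group below 0.803 FPKM. That value is called the level needed for testing below, and such rows are said to be tested through their other group. The level was read from the values, since the authors' rule for testing is not given. In 573 of them that group was vehicle, and in 569 it was corticosterone. Counts of rows at sparse loci are to be read with this in mind. The number of such rows is given beside many of the loci described for their ratios, and where it is not given there may still be some.

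Rows of the same locus tended to have values that differed in the same direction. With the log2 ratio of the corticosterone value to the vehicle value as the measure, 61.4% of the pairs of rows in a locus had the same sign, as a mean over the 1070 loci. Among all pairs of member rows from different loci the share was 50.04%. The member rows as a whole were balanced, since 51.8% had the higher value with corticosterone, as did 51.8% of all tested rows, and their median log2 ratio was 0.011, against 0.0070 over all tested rows. No test is attached to the agreement, because the rows of a locus were measured in the same pooled libraries and are not replicates of the treatment. A difference in a single animal would move all rows of a locus together and cannot be told apart from a difference shared by 6 animals.

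**Figure D1:**
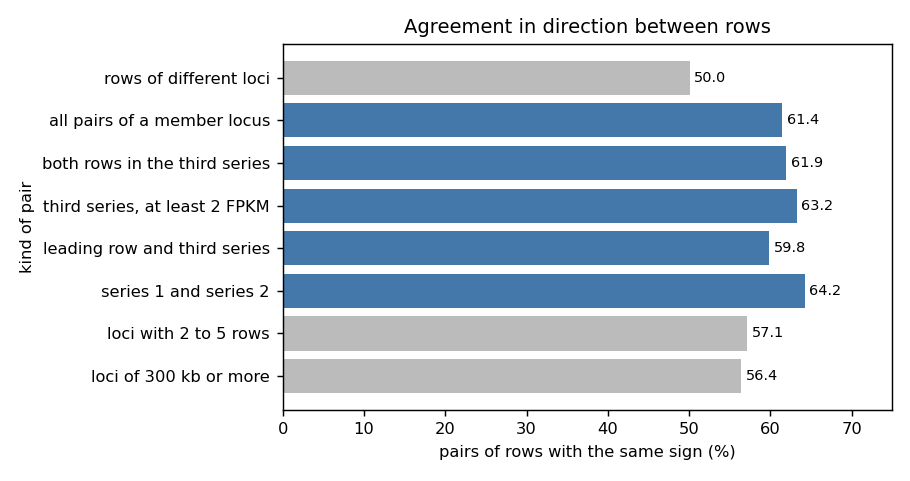
Share of pairs of rows whose log2 ratios (corticosterone over vehicle) had the same sign, in percent, by the kind of pair; each bar within loci is a mean over loci, blue bars are pairs within the 1070 member loci and grey bars are the values set beside them. Pairs from different loci stand at 50.04%, pairs within a member locus at 61.4%, and pairs of the first and second series at 64.2%. First- and second-series rows were mostly higher, so the share for unrelated pairs of these series lies above 50.04% and was not computed.

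The kind of row made a modest difference to this agreement. Pairs within the third series agreed in 61.9% of cases over 1068 loci. With only rows of at least 2 FPKM the share was 63.2% over 536 loci, and with at least 4 FPKM 62.0% over 143. A leading row of the first or second series and the third-series rows of its locus agreed in 59.8% over 1046 loci. Where a locus had rows of both the first and the second series, the pairs between them agreed in 64.2% over 231 loci. Their log2 ratios lay a median of 0.08 apart, against 0.28 for pairs within the third series. These gaps are not compared, since the interquartile range was 0.12 in the first and second series and 0.38 in the third. Of the first- and second-series rows, 62.3% and 62.0% were higher. Unrelated pairs of them would therefore agree in more than 50.04%, by an amount not computed. Loci under 300 kb with 2 to 5 tested rows had 57.1% of pairs in agreement over 3284 loci. Loci of 300 kb or more with at least 6 rows had 56.4% over 309. Within the third series alone, these shares were 59.1% over 1176 loci and 56.4% over 307. These shares differ from that of the member loci by a few percentage points, and the difference was not tested.

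In the third series, the agreement in sign was set against the distance between identifiers. The table does not print a position for each row inside its locus, but the identifiers follow position from locus to locus. In the 111 loci with 20 or more third-series rows, rows with adjoining identifiers had log2 ratios a median of 0.19 apart and the same sign in 64.2% of pairs. The share was 65.5% at a distance of 2 identifiers, 65.0% at 3 to 4, 64.3% at 5 to 8 and 63.1% at 9 to 16. At a distance of 17 or more identifiers in the same loci, the ratios lay a median of 0.25 apart and 59.0% of pairs had the same sign. The differences were not tested.

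Rows of a locus differed from one another in ratio. The interquartile range of the log2 ratios within a locus had a median of 0.23. Over all member rows it was 0.33, and over all tested rows 0.24. The medians of the loci had an interquartile range of 0.18, which is not comparable with that of single rows, since a median over several rows varies less than a row. Of the variance of the log2 ratios in the third series, 42.8% lay between loci and the rest within them, over 11281 rows. In loci of 300 kb or more, the part between loci was 19.0% of the variance in the third series, and in loci under 300 kb with 2 to 5 rows it was 38.3%. The part that unrelated rows would give depends on the number of rows per locus and was not computed, so these shares are not compared.

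Complete agreement was seen at 124 of the 1070 loci. At 86 of them every row had the higher value with corticosterone, and at 38 every row had the lower one. With the untested rows counted as well, 107 loci were in complete agreement, 75 higher and 32 lower. The number that unrelated rows would give was not computed. The share of loci with complete agreement was 16.3% among the 367 loci of 6 or 7 rows, 12.3% among the 285 of 8 to 10, 8.22% among the 292 of 11 to 19 and 3.97% among the 126 of 20 or more. The agreement over pairs did not fall in the same way, with 60.3% for 6 or 7 rows and 63.7% for 20 or more. Of the 124 loci, 8 held a row called different by the authors, and the smallest unadjusted p in their deposited table was 0.05 or less at 40 of them. At the other 946 loci it was 0.05 or less at 43. The signs that divide the loci and the p-values come from the same data, so these counts are no separate support for the agreement.

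Few rows of these loci were called. With the q of 0.05 or less of the authors' deposited table, 17 of the 12740 rows were called, or 0.133%, while 0.345% of all tested rows and 0.371% of the rows of loci under 300 kb with 2 to 5 tested rows were called. Of the 17, 16 were higher with corticosterone (0.126% of the member rows, against 0.271% of all tested rows) and 1 was lower (0.00785%, against 0.0747%). They lay at 9 loci, 0.841% of the member loci, and 0.738% of all tested loci held a called row. Per row the share of calls was below that of all tested rows, which is not a like background. Of the member rows, 88.5% were of the third series. Over the chromosomes with 3 series, 0.192% of all tested third-series rows were called, against 0.642% in the first and second. The background also holds the calls of the loci left out by the selection. Per locus the 2 shares are unlike measures, since most tested loci are a single row and a locus with more rows has more chances of a call. Of the loci under 300 kb with 2 to 5 tested rows, 0.944% held a called row, and of those of 300 kb or more with at least 6 rows, 0%. With the 6 loci left out by the selection put back, 31 rows were called, so the count of 17 depends on leaving them out. Of the 17 called rows, 15 had the smallest p of the deposited table, 5e-05, 5 were leading rows and 10 were in the third series.

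The most calls at 1 locus, 5 among 7 rows, were on chromosome 2 at 62634694 to 62785299, where all 7 rows had higher values with corticosterone. The leading row, XLOC_027568, had 6.88 FPKM with corticosterone and 3.72 FPKM with vehicle and was not called (q = 0.747 in the authors' deposited table). The only row of the first series there, XLOC_027026, had 0.43 FPKM with vehicle and rose to 1.26 FPKM (2.95-fold and q = 0.0165 by the authors' deposited table). The third-series rows had 0.88 to 1.72 FPKM with corticosterone and 0.28 to 0.53 FPKM with vehicle. Apart from the leading row, with a log2 ratio of 0.89, the rows lay between 1.55 and 1.82. All 6 of these rows had vehicle below the level needed for testing and only corticosterone above it. The 3 untested rows at this locus also had higher values with corticosterone, with a median log2 ratio of 1.57.

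A similar set of rows lay on chromosome 7 at 125569769 to 125612977, with 11 rows that were all higher with corticosterone and 3 calls. Its leading row, XLOC_048262, had 1.57 FPKM with vehicle and rose to 3.21 FPKM (q = 0.0165 in the authors' deposited table). The other 10 rows, all of the third series, had 0.23 to 0.40 FPKM with vehicle and 1.01 to 1.44 FPKM with corticosterone. Their log2 ratios lay between 1.64 and 2.16, all above the 1.03 of the leading row, and XLOC_051005 had the largest. That row had 0.31 FPKM with vehicle and rose to 1.37 FPKM, which is 4.48-fold by the authors' deposited table. All 10 were tested through the corticosterone value alone, and there was no untested row at this locus.

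The locus on chromosome 4 at 84596907 to 84741115 held abundant rows that differed from each other in the size of their ratio. Its leading row, XLOC_037464 of the second series, had 28.0 FPKM with corticosterone and 27.8 FPKM with vehicle, a log2 ratio of 0.01 (q = 0.999 in the authors' deposited table). The row of the first series, XLOC_037031, had 10.8 FPKM with vehicle and rose to 19.7 FPKM, 1.82-fold (q = 0.0165 in the authors' deposited table). The 4 third-series rows went with the latter. XLOC_038962 had 6.69 FPKM with corticosterone and 1.76 with vehicle, and the remaining 3 had 1.88 to 3.13 with corticosterone and 0.52 to 0.92 with vehicle. Their log2 ratios lay between 1.77 and 1.92, close to one another, although none was called (smallest q = 0.189 in the authors' deposited table). Of the 4, 2 had vehicle below the level needed for testing. The median log2 ratio over the 6 rows, 1.81, was the highest of all 1070 loci.

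At 3 further called loci every row was higher with corticosterone and the leading row itself was called. On chromosome 1 at 43790661 to 43884294, the leading row rose from 3.79 to 6.08 FPKM (q = 0.0165 in the authors' deposited table), and its 5 third-series companions had 0.45 to 0.85 FPKM with vehicle and 1.06 to 1.57 FPKM with corticosterone. On chromosome 2 at 189205524 to 189255201, the leading row rose from 4.00 to 5.86 FPKM. Of its 5 companions, XLOC_030440 rose from 0.91 to 1.72 FPKM and XLOC_030441 from 0.84 to 1.71 FPKM, all with q = 0.0165 in the authors' deposited table. On chromosome 18 at 3317599 to 3555713, the leading row, of the first series, rose from 4.14 to 7.22 FPKM (q = 0.0165 in the authors' deposited table). A second-series row there, XLOC_023728, had 4.67 FPKM with corticosterone and 4.33 with vehicle and was not called, so that abundant rows differed in ratio at this locus too. Its 4 untested rows were divided, with 3 higher and 1 lower. At these 3 loci, 4, 2 and 5 sparse rows were tested through their corticosterone value alone.

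The other 3 called loci included the 1 with a lower call. On chromosome 17 at 24242553 to 24295095, all 8 rows had lower values with corticosterone. The leading row had 4.85 FPKM with corticosterone and 5.23 FPKM with vehicle, a log2 ratio of -0.11. The 7 sparse rows had 0.60 to 0.97 FPKM with corticosterone and 1.12 to 1.72 FPKM with vehicle, and XLOC_022422 among them fell from 1.72 to 0.97 FPKM (q = 0.0165 in the authors' deposited table). Of the 7, 6 were tested through their vehicle value alone. On chromosome 5 at 166913714 to 167030479, all 10 rows were higher, with the call on a third-series row, XLOC_044520, that rose from 1.06 to 1.59 FPKM (q = 0.0434 in the authors' deposited table). In 5 of those rows vehicle was below the level needed for testing, and the 2 untested rows were higher too. On chromosome 11 at 33980078 to 34027445, the leading row rose from 13.2 to 16.6 FPKM, 1.26-fold (q = 0.0306 in the authors' deposited table). Its companions were less uniform, with log2 ratios from -0.44 to 1.01 and 8 of 9 higher.

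The leading row and its companions often differed in size. Across the 1070 loci the log2 ratio of the leading row had an interquartile range of 0.11, and the median of the other rows one of 0.23. The median of the other rows lay further from 0 than the leading row at 758 loci, or 70.8%. The signs matched at 695 loci, or 65.0%, and across loci the 2 values had a Pearson correlation of 0.50 and a Spearman correlation of 0.44, given as a description, since both come from the same libraries. Leading rows were more often higher than lower with corticosterone, at 694 loci (64.9%), with a median log2 ratio of 0.03. The median of the other rows was higher at 531 loci, and its median over loci was -0.001. The same lean was present in all tested rows of the chromosomes with 3 series, with 58.0% of first- and second-series rows higher and 48.7% of third-series rows.

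**Figure D2:**
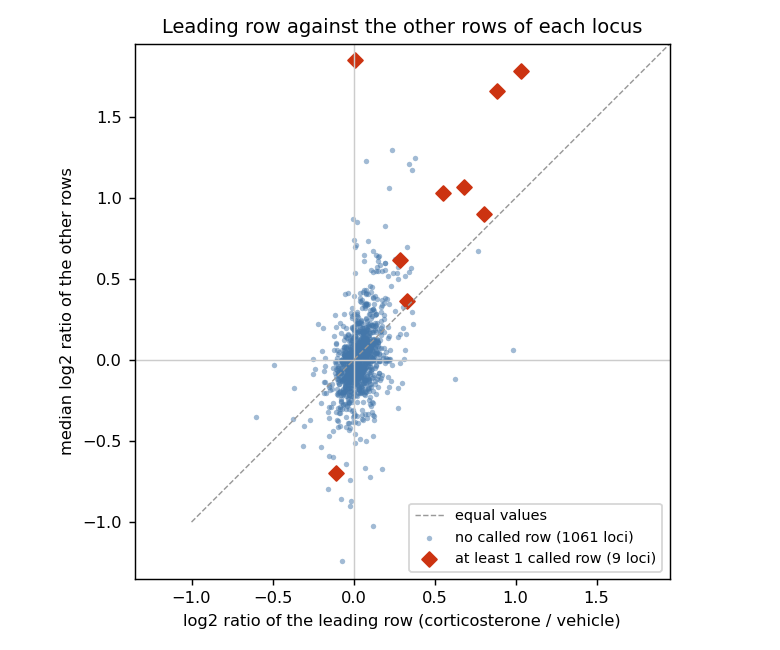
Log2 ratio (corticosterone over vehicle) of the leading row on the horizontal axis and the median log2 ratio of the other rows on the vertical axis, 1 point per locus; red diamonds are the 9 loci with a called row and the dashed line marks equal values. The points form a steep band, since leading rows have an interquartile range of 0.11 and the medians of the other rows 0.23, and the topmost diamond is the locus on chromosome 4 with a leading row at 0.01.

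At like FPKM, leading rows and third-series rows still differed in spread. Row lengths and fragment counts are not given, so rows of equal FPKM need not rest on equal numbers of fragments. Third-series rows of 4 to 8 FPKM had log2 ratios with an interquartile range of 0.34 (916 rows at 225 loci), while leading rows in the same bin had one of 0.12 (315 loci). In the third series the range went from 0.47 below 1 FPKM to 0.27 at 8 FPKM or more. Large ratios were mostly not called. Of 251 member rows with at least a 2-fold difference, 163 higher and 88 lower with corticosterone, 248 were in the third series and 242 were not called, and their median unadjusted p in the authors' deposited table was 0.329. Only 1 of these rows was a leading row, that of the locus on chromosome 7 at 125569769.

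At 163 loci the median of the other rows was at least 0.3 from 0 on the log2 scale, 98 higher and 65 lower with corticosterone. At 79 of the 163, the leading row lay within 0.1 of 0. The share of all leading rows that did so was not computed. All leading rows had an interquartile range of 0.11 and a median of 0.03, so values near 0 are common among them. Where the companions were higher, the leading row had a median log2 ratio of 0.13 and was higher at 93 of 98 loci. Where they were lower, it had a median of -0.02 and was lower at 39 of 65. Since leading rows lean upwards in general, the same was counted around their own median: the leading row was above it at 87 of the 98 loci and below it at 47 of the 65. Whether the directions differ was not tested.

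The reverse case, a leading row that differed while its companions did not, was found at fewer loci. Leading rows had the narrower interquartile range, 0.11 against 0.23 for the medians of the other rows. The same cut is therefore passed less often by leading rows, and the 2 counts are not compared. The leading row was at least 0.3 from 0 at 30 loci, 24 higher and 6 lower, and at 4 of these the other rows had a median within 0.1. Of the 8 leading rows past 0.58, named here after their values were seen, 4 are at called loci described above. Where 2 FPKM values follow each other without a group, the corticosterone value comes first. On chromosome 6 at 92420549 to 92529457, the leading row, itself of the third series, had 5.42 FPKM with corticosterone and 2.74 FPKM with vehicle (unadjusted p = 0.676 in the authors' deposited table), and the median log2 ratio of the other 6 rows was 0.06. On chromosome 17 at 44737918 to 44816013, the leading row had 21.7 and 14.1 FPKM (unadjusted p = 0.0328 in the authors' deposited table), while the other rows, at 5.40 to 14.7 FPKM with corticosterone, had a median of -0.12. On chromosome 10 at 66322107 to 66482609, the leading row had 10.2 and 5.97 FPKM and all 14 rows were higher, with log2 ratios of 0.43 to 1.19, 1 of them with vehicle below the level needed for testing. The lower one, on chromosome 19 at 28641543 to 28886570, had 3.36 FPKM with corticosterone and 5.09 with vehicle, with 6 of 7 rows lower.

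By the median over all rows of a locus, 86 loci had a log2 ratio of at least 0.3 and 45 one of -0.3 or less. Together these were 12.2% of the member loci, 8.04% higher and 4.21% lower. Over all 17077 loci with a log2 ratio the share was 12.6%, 6.78% higher and 5.8% lower, most of those loci being a single row. Among loci under 300 kb with 2 to 5 rows, 5.94% were higher and 4.11% lower by this measure. Among loci of 300 kb or more, 2.27% were higher and 1.94% lower. The shares of 12.2% and 12.6% are close but unlike measures, since a median over several rows varies less than a single row. A shift of this size was reached by 5.76% of the loci of 200 to 300 kb and by 10% to 15.4% of the loci in the shorter bins, and by 4.21% of the loci of 300 kb or more. Of the 131 loci, 9 held a called row.

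Of the 8 loci with the highest medians, 3 held calls, and the other 5 were on chromosomes 10, 16, 17, 13 and 1. On chromosome 10 at 74436102 to 74680251, 18 of 19 rows were higher. The abundant rows differed little, the leading row with 54.4 FPKM with corticosterone and 51.5 FPKM with vehicle and a first-series row with 25.2 and 24.6 FPKM. The 17 third-series rows divided by identifier. The first 3 had log2 ratios of 0.31, 0.26 and -0.40, and each of the next 14 had at least 0.91, up to 2.39 for XLOC_008989, which had 3.26 FPKM with corticosterone and 0.62 with vehicle. All unadjusted p-values at this locus were 0.204 or more in the authors' deposited table, and the median log2 ratio was 1.21. Vehicle was below the level needed for testing in 1 row.

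At the 4 other loci, the leading rows had log2 ratios of 0.24 to 0.38 and their companions mostly had larger ones. On chromosome 16 at 2958234 to 3027321, the leading row had 10.3 FPKM with corticosterone and 8.76 FPKM with vehicle, and the 9 third-series rows had 1.54 to 2.45 and 0.52 to 1.10 FPKM. On chromosome 17 at 55230309 to 55426014, the leading row had 5.87 and 4.63 FPKM, and the 13 other rows 0.82 to 1.25 and 0.27 to 0.69 FPKM. On chromosome 13 at 25776063 to 25835924, the leading row had 3.29 and 2.56 FPKM and the 6 others 0.81 to 1.10 and 0.26 to 0.47 FPKM. On chromosome 1 at 115975410 to 116141951, the leading row had 3.89 and 2.99 FPKM and the 8 others 0.84 to 1.16 and 0.26 to 0.52 FPKM. The 13, 6 and 8 sparse rows of the last 3 loci, and 7 of the 9 on chromosome 16, were tested through their corticosterone value only. The untested rows, 8 on chromosome 17 and 6 on chromosome 1, were all higher with corticosterone too, with median log2 ratios of 1.13 and 0.72. None of these rows was called.

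**Figure D3:**
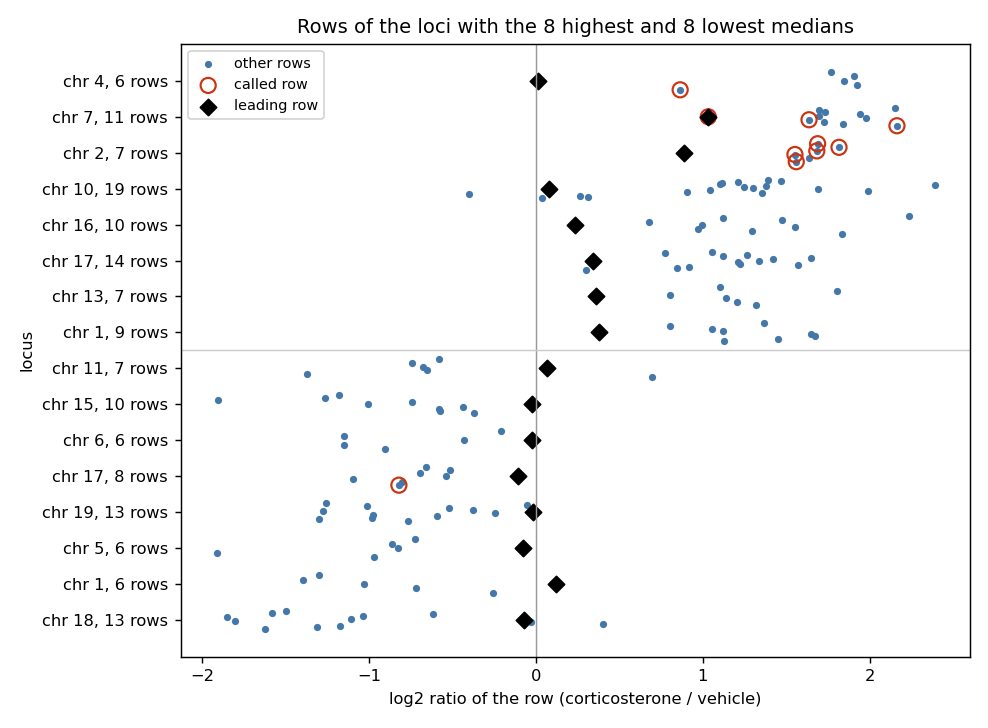
Log2 ratio (corticosterone over vehicle) of each row at the loci with the 8 highest medians (top) and the 8 lowest medians (bottom), 1 line per locus; diamonds are leading rows, dots the other rows and red rings called rows. In the lower part every leading row lies between -0.11 and 0.12, and in the upper part the leading row lies below most or all of its companions.

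The loci with the 8 lowest medians had leading rows with log2 ratios between -0.11 and 0.12. Values this near 0 are common among leading rows, whose interquartile range over all member loci was 0.11. On chromosome 18 at 41330129 to 41451749, with the lowest median of all, -1.17, the leading row had 8.18 FPKM with corticosterone and 8.59 FPKM with vehicle. Of its 12 third-series rows, 10 had log2 ratios between -0.62 and -1.85. The other two were neighbours in identifier, XLOC_024611 with 8.29 and 6.28 FPKM and XLOC_024612 with 2.02 and 2.06 FPKM. The smallest unadjusted p there was 0.187 in the authors' deposited table, and 5 rows were tested through their vehicle value alone. On chromosome 1 at 275814151 to 275906892, the leading row had 24.7 and 22.7 FPKM, a log2 ratio of 0.12, and its 5 companions had 0.74 to 1.37 FPKM with corticosterone and 0.89 to 2.48 FPKM with vehicle. The 4 untested rows of that locus did not follow, with 3 of them higher, and 1 tested row had 1 group below the level needed for testing.

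At 4 more of the 8, every row was lower and the leading row lay within 0.1 of 0 on the log2 scale. On chromosome 5 at 14367526 to 14495317, the leading row had 3.37 FPKM with corticosterone and 3.56 FPKM with vehicle, and its 5 companions 0.50 to 0.69 and 1.13 to 1.89 FPKM. On chromosome 19 at 30793474 to 30904153, the leading row had 12.2 and 12.3 FPKM, and its 12 companions had log2 ratios from -0.05 to -1.30. On chromosome 6 at 132325093 to 132430642, the leading row had 21.4 and 21.8 FPKM, and its 5 companions 0.57 to 3.28 and 1.07 to 3.79 FPKM. On chromosome 15 at 41245470 to 41338557, the leading row had 7.63 and 7.75 FPKM and its 9 companions 0.65 to 1.60 and 1.36 to 2.41 FPKM. The remaining locus of the 8 besides the called one, on chromosome 11 at 24967946 to 25078846, had 5 of 7 rows lower, and its 5 untested rows were lower too. One group was below the level needed for testing in 5 rows of the locus on chromosome 5, in 2 on chromosome 6, in 1 on chromosome 15 and in 6 on chromosome 11. None of the rows at these 5 loci was called.

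**Figure D4:**
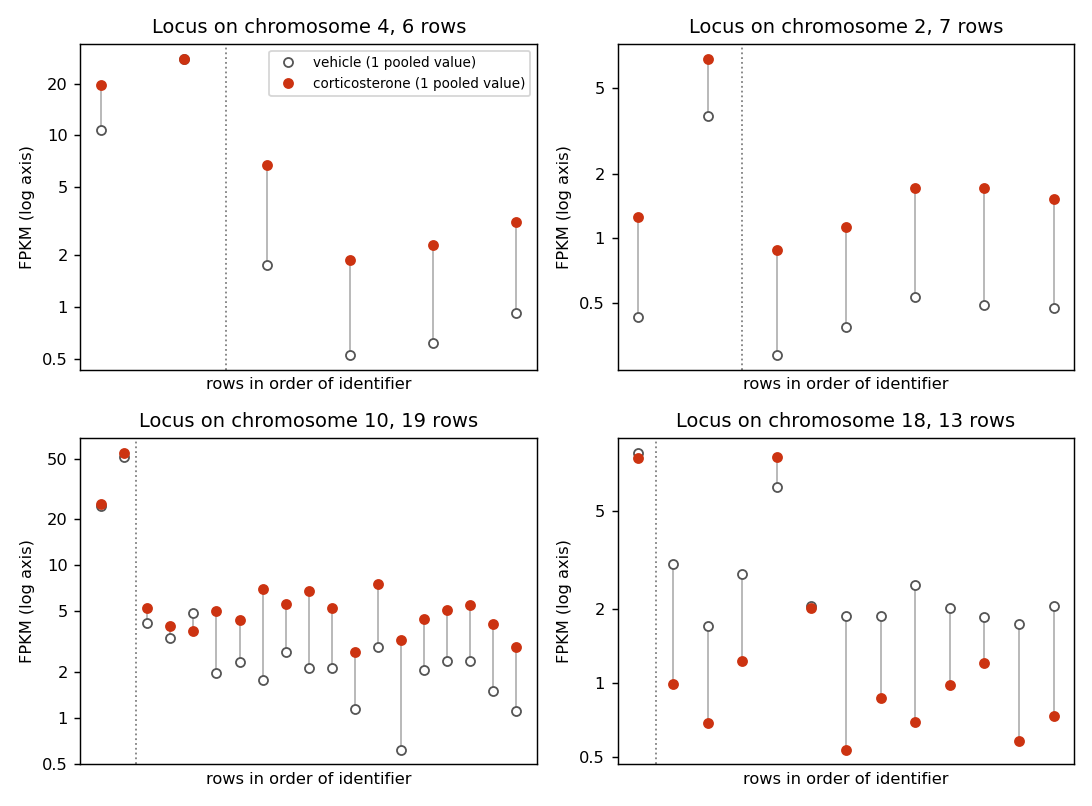
FPKM (log axis) of every tested row at 4 loci, in order of identifier, with open circles for vehicle and filled circles for corticosterone, each 1 pooled value per group; the dotted line separates first- and second-series rows (left) from third-series rows (right). On chromosome 4 the row at 27.8 and 28.0 FPKM stands beside rows with separated values, on chromosome 10 the first 3 third-series rows differ less than the 14 after them, and on chromosome 18 the pair of rows XLOC_024611 and XLOC_024612 stands apart from the rest.

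The largest numbers of rows in complete agreement were found at loci that were picked after their values were seen. On chromosome 4 at 57050003 to 57200428, all 41 rows were higher, with log2 ratios of 0.09 to 1.23, and the lowest was that of the leading row, with 17.4 FPKM with corticosterone and 16.3 FPKM with vehicle. Its 40 companions had 3.22 to 7.74 FPKM with corticosterone and 1.79 to 4.42 FPKM with vehicle. On chromosome 2 at 183135864 to 183313005, all 34 rows were higher, and the leading row, with 69.8 and 69.3 FPKM, again had the smallest ratio, 0.01, in a range up to 1.64. On chromosome 18 at 60391086 to 60501380 all 22 rows were higher, with a median log2 ratio of 0.55, and 3 of them had vehicle below the level needed for testing. On chromosome 6 at 104437105 to 104532798 all 20 were, with a median of 0.45. On chromosome 11 at 57567745 to 57708537 all 22 rows were lower, with a median of -0.37. None of these 5 loci held an untested row or a called one, and the smallest q at them was 0.0546, on chromosome 18, in the authors' deposited table.

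The 10 loci with most rows had small median ratios, and their rows agreed to very different degrees. The largest, on chromosome 1 at 186977925 to 187268215, had 76 rows, 26 higher and 50 lower, with a median log2 ratio of -0.06. Loci of 71 rows on chromosome 13 (86386688 to 86671673) and 69 rows on chromosome 7 (90083723 to 90319632) had 51 and 53 rows lower, with medians of -0.09 and -0.14. The other locus of 69 rows, on chromosome 7 at 112643509 to 112937917, had 52 higher and a median of 0.16, and the locus of 59 rows at 128499706 to 128730813 had 49 higher and a median of 0.18. On chromosome 2 at 119327321 to 119539235, 48 of 52 rows were lower with a median of -0.18, while the leading row had 56.3 FPKM with corticosterone and 55.1 FPKM with vehicle. Near even splits were seen on chromosome 8 at 105737261 to 106036823 (32 of 67 higher), on chromosome 10 at 2777543 to 3071549 (27 of 53), on chromosome 5 at 106091480 to 106361093 (28 of 51) and, less evenly, on chromosome 1 at 128923695 to 129214154 (36 of 58). The leading rows of all 10 lay between -0.08 and 0.12.

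At the other end, some loci had rows that were nearly equal in ratio. The narrowest, on chromosome 3 at 79236136 to 79392052, had 9 rows with an interquartile range of 0.02 around a median of 0.12, and its leading row, with 26.4 FPKM with corticosterone and 24.3 FPKM with vehicle, had the same ratio of 0.12. The next 5, on chromosomes 5 (151572987 to 151628265), 1 (211195444 to 211247309), 4 (35039670 to 35285776 and 58057082 to 58195392) and 3 (91289591 to 91461233), had interquartile ranges of 0.02 to 0.04 and medians between -0.08 and 0.20. On the last of these all 6 rows were higher, while its 13 untested rows were divided, with 8 higher, and 3 of the 6 tested rows had 1 group below the level needed for testing. The widest spread, on chromosome 9 at 76625594 to 76770253, was 1.00. There the leading row had 1.73 FPKM in both groups, a pair of rows had log2 ratios of 1.19 and 1.26, and another had -0.02. In 4 of the 6 rows vehicle was below the level needed for testing, among them the pair. On chromosome 5 at 151319398 to 151379953 the spread was 0.89 with rows on both sides, from -0.84 to 0.56, and 2 rows had 1 group below that level. The other 4 of the 6 widest are among the loci with the highest and lowest medians, on chromosomes 18, 1, 6 and 4.

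The 6 most abundant leading rows had log2 ratios of -0.02 to 0.16. On chromosome 19 at 9766247 to 9802462, the leading row had 347.5 FPKM with corticosterone and 330.8 FPKM with vehicle, and its 5 companions 0.85 to 1.08 and 0.86 to 1.12 FPKM. On chromosome 5 at 144769316 to 144872447 it had 318.2 and 287.5 FPKM, with a median log2 ratio of 0.13 for the others. On chromosome 13 at 82626170 to 82759208 it had 284.7 and 288.1 FPKM, and on chromosome 15 at 58554356 to 58658136 it had 142.4 and 127.7 FPKM with 5 of 10 rows higher. On chromosome 9 at 10585242 to 10624871 the leading row had 116.8 and 107.7 FPKM. The other locus on chromosome 9, at 73204657 to 73465683, had a leading row of 146.3 and 142.7 FPKM, a log2 ratio of 0.04, and 17 of 20 rows higher. The 17 third-series rows with the lowest identifiers there had up to 2.98 FPKM with corticosterone, and the last 2 had 24.2 and 31.0 FPKM and log2 ratios of -0.0027 and -0.08. In 8 of its rows 1 group was below the level needed for testing.

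The second deposited file, a list of transcripts whose header calls them differentially expressed, touched 10 of the member loci with 21 of its 122 entries. Of these, 6 were at the locus on chromosome 2 at 62634694 and 3 at that on chromosome 7 at 125569769. For scale, the member loci hold 29.7% of the tested rows and are 6.27% of the tested loci. The share of all loci that the list touched is not given here, so the count of 10 is a description only. Some of the listed loci held no called row, among them that on chromosome 10 at 74436102 and that on chromosome 10 at 66322107. No source used here says how the list was made, and it is no separate evidence for the calls.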

How the data were processed

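RNA from the hippocampus of 12 adrenalectomised rats, 6 per group, was sequenced. Bowtie2 0.6, TopHat 0.9, Cufflinks 2.2.1.0, Cuffdiff 2.2.1.3 and the build rn5 are listed, per the submitters' processing notes, and neither their order nor their settings are known. The authors deposited 1 FPKM value per group and assembled gene. Per the file headers, the table also holds a log2 fold change of Control over Cort, p-values and q-values and a test score, which was not used. The deposited transcript list carries a score that no source used here explains. Reads, depth and values per animal were not used here.

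Rows with a completed test were grouped by identical locus entries. Log2 ratios of corticosterone over vehicle were computed from the deposited FPKM values without a pseudocount. A row was called at the authors' q of 0.05 or less, and no further test was fitted. A row's leading status was set by its mean FPKM over both groups. Series of identifiers were split where the start position stepped back by more than 1000000 bp.

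Loci were named by rule: the 10 with most rows, those with a called row, the 8 highest and 8 lowest medians, the 6 narrowest and 6 widest interquartile ranges and the 6 most abundant leading rows. The loci with most rows in one direction, the leading rows past 0.58, the series of identifiers and the level needed for testing were added after the values were seen. The members, lists and rules were chosen with earlier results of these data known. Alternatives varied the minimum of rows, the length, low values, a pseudocount, the centring, the call rule and the rows included. Python 3.11.15, pandas 2.3.3, numpy 2.4.6 and matplotlib 3.10.9 were used, and the calculations were tested on simulated data.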

Additional observations from a re-analysis of the deposited data

How the results depend on the processing

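Of 81 alternative values, 64 stayed within the limits set for them, and the agreement of pairs ranged from 60.9% to 62.6%. The 124 loci with complete agreement became 64 with at least 8 rows per locus, 41 with at least 10 and 61 below 100 kb, where fewer loci enter. The 17 called rows became 7, 5 and 9 under those settings, and 31 with the left-out loci kept. They became 2 when rows averaging under 1 FPKM were dropped, 4 with third-series rows only and 10 at loci without an untested row. The last 2 settings were chosen after seeing the data, as were leaving out leading rows or loci with a call. Under the settings that gave 2 and 4, the minimum of 6 rows was applied again, which left 803 and 801 loci. Loci with calls fell out whole there, so called rows averaging 1 FPKM or more, or of the third series, were lost too. With Cuffdiff's q of 0.01 or less 0 rows were called, which was fixed by the table, whose smallest q is 0.0165. An unadjusted p of 0.05 or less in the authors' deposited table was held by 153 rows. As a share of the member rows this was below the share among all tested rows, so the larger count is no sign of more differences at these loci. The 131 shifted loci became 72 with at least 10 rows (14.3% of 504 loci, against 12.2%), 55 below 100 kb (13.9% of 396), 84 without rows averaging under 1 FPKM and 52 with a pseudocount of 1 FPKM (39 higher and 13 lower). That pseudocount, which shrinks the ratios of sparse rows, brought the spread within a locus from 0.23 to 0.14. No paired analysis was possible because the table holds a single pooled value for either group, and leaving out replicates was not run for the same reason.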
